A study of Saccharomyces cerevisiae with 3 samples.

Results

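The 10 genes described here serve the supply of thiamine (vitamin B1) and vitamin B6 in budding yeast. They were taken by gene symbol from the array annotation, namely *SNO1*, *SNZ1*, *SNZ3*, *PHO3*, *THI4*, *THI7*, *THI20*, *THI6*, *THI2* and *THI3*, and make up 10 of the 5449 *S. cerevisiae* genes measured. They were chosen by name after their signals and ratios to WT on these same arrays had been seen, so their values are a description and none was tested. Total RNA came from bulk cultures of a wild type strain (WT), a strain with *SPT3* deleted (*spt3Δ*) and a strain with *SPT8* deleted (*spt8Δ*), each deletion made with *KanMX*, and each strain was read on 1 Affymetrix array with no replicate. All 3 strains were grown in YPD, a rich medium, at 30 °C to exponential phase, and the labels name BY4742 as their shared background. The methods list them as *MATa*, whereas BY4742 is known as *MATα*, and as *his3Δ1 leu2Δ0 met15Δ0 ura3Δ0*, but *MET17* (also called *MET15*) had signals of 6686, 7739 and 8377 in WT, *spt3Δ* and *spt8Δ*, while that of *LYS2*, a gene that BY4742 is known to lack, was not above background on any array.

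Thiamine is built from a pyrimidine and a thiazole part that are made separately and then joined, and its diphosphate is the cofactor of decarboxylases, transketolase and related enzymes. In yeast the genes of its synthesis and uptake are known to be repressed by external thiamine and to be activated by Thi2, Thi3 and Pdc2. Vitamin B6, as pyridoxal phosphate, is made by a complex of Snz and Sno proteins, and it is also a precursor of the pyrimidine part of thiamine in yeast, which ties the pathways together. Spt3 and Spt8 are subunits of the coactivator complex SAGA that contact TATA-binding protein.

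Values are MAS5 signals, 1 per probe set, on a linear scale that the authors brought to a nearly equal trimmed mean on the 3 arrays. The background of an array, the 95th percentile of its probe sets for *S. pombe*, was 7.17 in WT, with 6.67 in *spt3Δ* and 8.61 in *spt8Δ*. All 10 genes were above it on all 3 arrays, each is read by 1 probe set, and that of *SNZ3* alone has the suffix _s_at, which marks a probe set shared between transcripts. The deleted genes fit the labels: *SPT3* was not above background in *spt3Δ*, and *SPT8* was not above background in *spt8Δ*. Calls of lower or higher were made on the log2 ratio, at a distance of over 2 SD from its mean across the measured genes. These limits were 2.40-fold lower and 2.78-fold higher in *spt3Δ*, and 1.87-fold lower and 2.02-fold higher in *spt8Δ*. Both mutants are compared with the same WT array, so an error in that array enters both ratios. In bulk RNA, a change in some of the cells and a change in all of them cannot be told apart.

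The vitamin B6 genes *SNO1* and *SNZ1* were higher in *spt3Δ*, by 15.0-fold and 3.62-fold, whereas *SNZ3* was 2.88-fold lower and *PHO3*, an acid phosphatase gene of thiamine uptake, was 5.15-fold lower. In *spt8Δ*, *PHO3* was 3.76-fold lower and *SNO1* was 2.23-fold higher. The thiamine synthesis gene *THI4* had a 2.16-fold smaller signal in *spt3Δ* than in WT, short of the limit, and its signals in *spt8Δ* and WT lay within 1.04-fold. The other genes, *THI7*, *THI20*, *THI6*, *THI2* and *THI3*, were inside the limits in both mutants. In all, 2 of the 10 were called lower in *spt3Δ*, where 2.73% of all genes were, and 2 were called higher, where 0.973% of all genes were. In *spt8Δ* the counts were 1 lower and 1 higher, against 2.13% and 1.63% of all genes. The genes were picked with these ratios known, so nothing is read from the counts. The median log2 ratio of the 10 genes was -0.54 in *spt3Δ*, where that of all genes was 0.15, and -0.13 in *spt8Δ*, where that of all genes was 0.067.

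**Figure D1:**
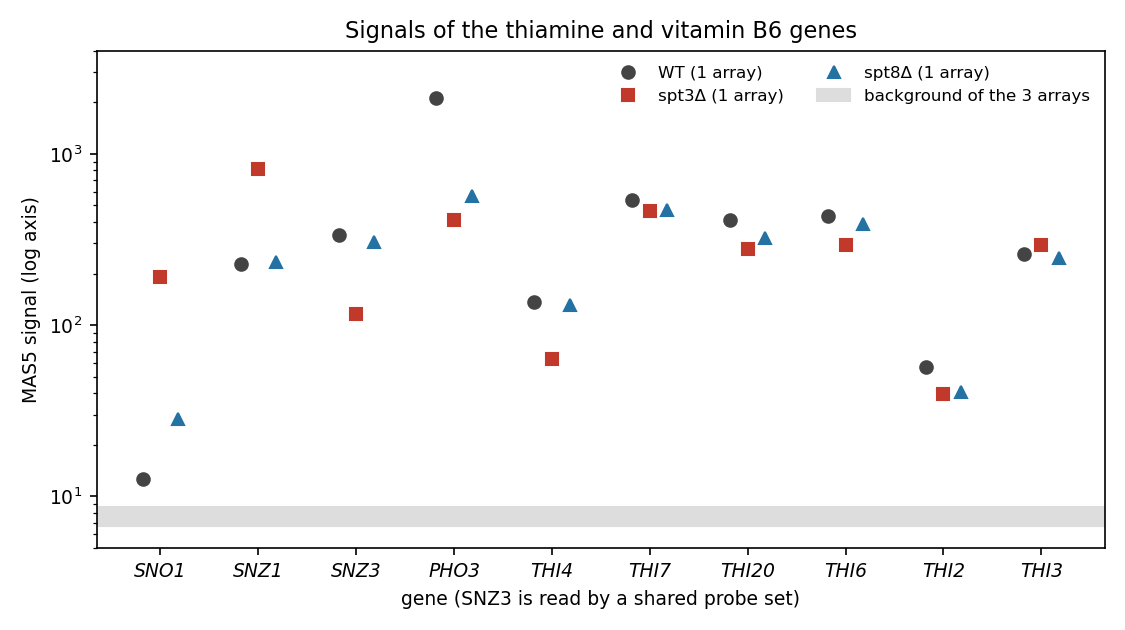
MAS5 signal (log axis) of each of the 10 genes on the WT, *spt3Δ* and *spt8Δ* arrays, 1 point per array, with the range of the 3 array backgrounds as a grey band. *SNO1* starts near the band in WT at 12.7 and reaches 189.9 in *spt3Δ*, while the *PHO3* signal of 2128 in WT is 413 in *spt3Δ* and 565 in *spt8Δ*.

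*SNO1* (YMR095C) encodes the glutaminase subunit that hands ammonia to the synthase in making pyridoxal phosphate. Its signal was 12.7 in WT, against 189.9 in *spt3Δ* and 28.3 in *spt8Δ*. The *spt3Δ* array stood far above the other 2, and the *spt8Δ* signal lay above WT. The log2 ratio to WT was 3.90 in *spt3Δ*, the 3rd highest of all 5449 genes, and 1.16 in *spt8Δ*, where it was the 65th highest. The WT signal lay near the background of 7.17, and the size of the ratio depended on it. With 50 added to each signal the log2 ratio was 1.94 in *spt3Δ*, still past the limit in that setting, and 0.32 in *spt8Δ*, which was inside it.

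*SNZ1* (YMR096W) encodes the synthase subunit that works with Sno1, and it is known as a gene that turns on in stationary phase. Its signal was 226 in WT, against 818 in *spt3Δ* and 232 in *spt8Δ*. The *spt3Δ* array was high, and the *spt8Δ* and WT arrays were close to each other. Its log2 ratio was 1.86 for *spt3Δ* and 0.038 for *spt8Δ*, and the latter took the opposite sign when the arrays were rescaled by quantiles, by loess or by the median of all genes.

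*SNZ3* (YFL059W) is a relative of *SNZ1* that lies next to *SNO3* and *THI5*. Its signal was 334 in WT, against 116 in *spt3Δ* and 307 in *spt8Δ*. Here the *spt3Δ* array was the low one, in the direction opposite to *SNZ1*, with a log2 ratio of -1.53 in *spt3Δ* and -0.12 in *spt8Δ*. The near-identical *SNZ2* has no probe set named for it in the annotation, and the shared probe set of *SNZ3* may read more than 1 transcript, so the value cannot be given to *SNZ3* alone. The neighbor *SNO3*, whose probe set is likewise shared, had signals of 212 in WT, 134 in *spt3Δ* and 224 in *spt8Δ*. It was thus also lowest in *spt3Δ*, with a log2 ratio of -0.67 that was inside the limits.

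Other genes of vitamin B6 stayed inside the limits in both mutants. Of the 10 genes listed for vitamin B6, 8 were measured, and in *spt3Δ* 2 were called higher (*SNO1* and *SNZ1*), 1 lower (*SNZ3*) and 5 neither. In *spt8Δ* 1 was called higher (*SNO1*) and 7 neither. All of the called genes are among the 10 picked with their ratios known, and none of the other 5 was called, where 3.71% of all genes in *spt3Δ* and 3.76% in *spt8Δ* were past a limit in either direction. *TPN1*, the plasma membrane transporter of pyridoxine, had signals of 1716 in WT, 1072 in *spt3Δ* and 1139 in *spt8Δ*, lower than WT by 1.60-fold and 1.51-fold. *PDX3*, the oxidase that yields pyridoxal phosphate, had signals of 1451, 2075 and 1769, higher than WT by 1.43-fold and 1.22-fold. The log2 ratios of the kinase genes *BUD16* and *BUD17*, of which *BUD17* is a putative pyridoxal kinase, lay between 0.012 and 0.26. Its list median was 0.076 on the log2 scale for *spt3Δ* and 0.059 for *spt8Δ*, close to those of all genes.

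*PHO3* (YBR092C) encodes a periplasmic acid phosphatase that frees thiamine from its phosphates before uptake. Its signal was 2128 in WT, against 413 in *spt3Δ* and 565 in *spt8Δ*. Both mutant arrays were well below WT, and they lay within 1.37-fold of each other. The log2 ratio was -2.36 in *spt3Δ*, the 54th lowest of all genes, and -1.91 in *spt8Δ*, the 30th lowest. *PHO5* (YBR093C), the phosphate-regulated acid phosphatase gene next to it, had signals of 3178 (WT), 297 (*spt3Δ*) and 341 (*spt8Δ*), which were 10.7-fold and 9.33-fold lower. On the same arrays *PHO11*, read by a shared probe set, lay 18.9-fold below WT in *spt3Δ* and 4.43-fold below it in *spt8Δ*. All 3 secreted acid phosphatase genes measured, of which *PHO3* was picked with its ratios known, were below the limit in both mutants, which share the WT array, as were 71 of all 5449 genes (1.30%). *PHO3* and *PHO5* are close relatives, and whether probes of *PHO3* also read *PHO5* was not tested.

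**Figure D2:**
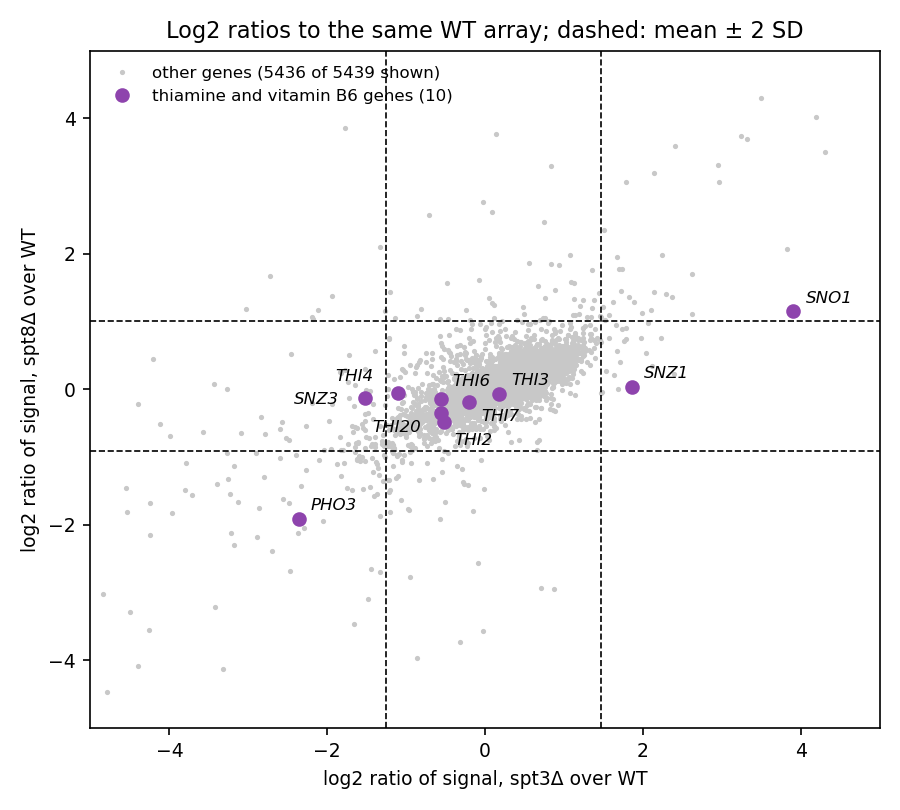
Log2 ratio of signal in *spt3Δ* over WT (x axis) against that in *spt8Δ* over the same WT array (y axis), with the 10 genes in purple, other genes in grey and dashed lines at the mean ± 2 SD of each ratio. *SNO1* and *PHO3* lie past the limits on both axes, and *SNZ1* and *SNZ3* lie past them on the *spt3Δ* axis only, on opposite sides.

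*THI7* (YLR237W), the main thiamine transporter of the plasma membrane, had signals of 536 in WT, 466 in *spt3Δ* and 470.3 in *spt8Δ*. The mutants were 1.15-fold and 1.14-fold below WT and were inside the limits. Its relative *THI72* was at 47.4, 36.9 and 40.1, and *THI73*, a predicted permease gene, at 63.6, 62.2 and 59.0. Signals of *TPC1*, the mitochondrial carrier of thiamine diphosphate, were 205, 195.0 and 244. Of the 5 uptake genes measured, *PHO3* alone was past a limit, where 3.71% of all genes were in *spt3Δ* and 3.76% in *spt8Δ*. All 5 had a *spt3Δ* signal below WT, as did 2115 of all 5449 genes, although for *THI73* and *TPC1* by no more than 1.05-fold. *PHO3* and *THI7* were picked with their ratios known. The other 3 had a median log2 ratio of -0.072 in *spt3Δ* and -0.11 in *spt8Δ*.

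*THI4* (YGR144W) makes the thiazole part of thiamine and gives up a sulfur atom of its own in doing so. Its signal was 137 in WT, against 63.5 in *spt3Δ* and 131 in *spt8Δ*. The *spt3Δ* array alone was low. The log2 ratio of -1.11 in *spt3Δ* lay just inside the lower limit of -1.26, and it passed the limit when dim genes were left out or raised to background, with a limit of 2 robust SD, which 4.86% of all genes passed downward, and with a limit of 2-fold, which 4.2% did.

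*THI20* (YOL055C) encodes a kinase of the pyrimidine part that also breaks down thiamine. Its signal was 411 in WT, against 279.7 in *spt3Δ* and 322 in *spt8Δ*, with log2 ratios of -0.56 and -0.35. *THI6* (YPL214C), whose product joins the pyrimidine and thiazole parts, had signals of 431 in WT, 294 in *spt3Δ* and 391 in *spt8Δ*, with log2 ratios of -0.55 and -0.14. For both genes WT was the highest array and *spt3Δ* the lowest, and none of these ratios was past a limit. The relatives of *THI20* ran in the same order, *THI21* at 189, 153 and 174 and *THI22* at 298, 205 and 255 in WT, *spt3Δ* and *spt8Δ*. *THI13*, of the pyrimidine-forming *THI5* family, is read by a shared probe set and was at 98.3, 81.8 and 100.4.

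*THI80*, the kinase that turns thiamine into its diphosphate, was alone among the measured synthesis genes in lying above WT in *spt3Δ*, with signals of 545 (WT), 703 (*spt3Δ*) and 611 (*spt8Δ*). Of the 10 genes listed for synthesis, *THI5*, *THI11* and *THI12* had no probe set named for them, and 7 were measured. Of these, 6 had a lower signal in *spt3Δ* than in WT and 5 in *spt8Δ*. None of the 7 was past a limit, where 3.71% of all genes were in *spt3Δ* and 3.76% in *spt8Δ*. Over all genes, 2115 of 5449 had a lower signal in *spt3Δ* and 2241 in *spt8Δ*. The median log2 ratio of the synthesis genes was -0.54 in *spt3Δ* and -0.12 in *spt8Δ*. Without *THI4*, *THI20* and *THI6*, which were picked with their ratios known, the other 4 had medians of -0.28 and -0.044, with 3 of them below WT in *spt3Δ* and 2 in *spt8Δ*.

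*THI2* (YBR240C) encodes a zinc finger activator of the thiamine genes and *THI3* (YDL080C) a sensor of thiamine diphosphate that works with it. The signal of *THI2* was 56.6 in WT, against 39.4 in *spt3Δ* and 40.4 in *spt8Δ*, which put both mutants below WT by 1.44-fold and 1.40-fold. The signal of *THI3* was 259 (WT), 292 (*spt3Δ*) and 247 (*spt8Δ*), and its log2 ratios of 0.17 and -0.067 were the only pair of opposite sign among the 10 genes. The positive sign of *THI3* in *spt3Δ* was lost when arrays were rescaled by quantiles (-0.11), by loess (-0.16) or by the median of all genes (-0.062). *PDC2*, a further activator of the thiamine genes, had signals of 216, 279 and 249.8. None of these 3 regulators was past a limit, where 3.71% of all genes were in *spt3Δ* and 3.76% in *spt8Δ*.

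**Figure D3:**
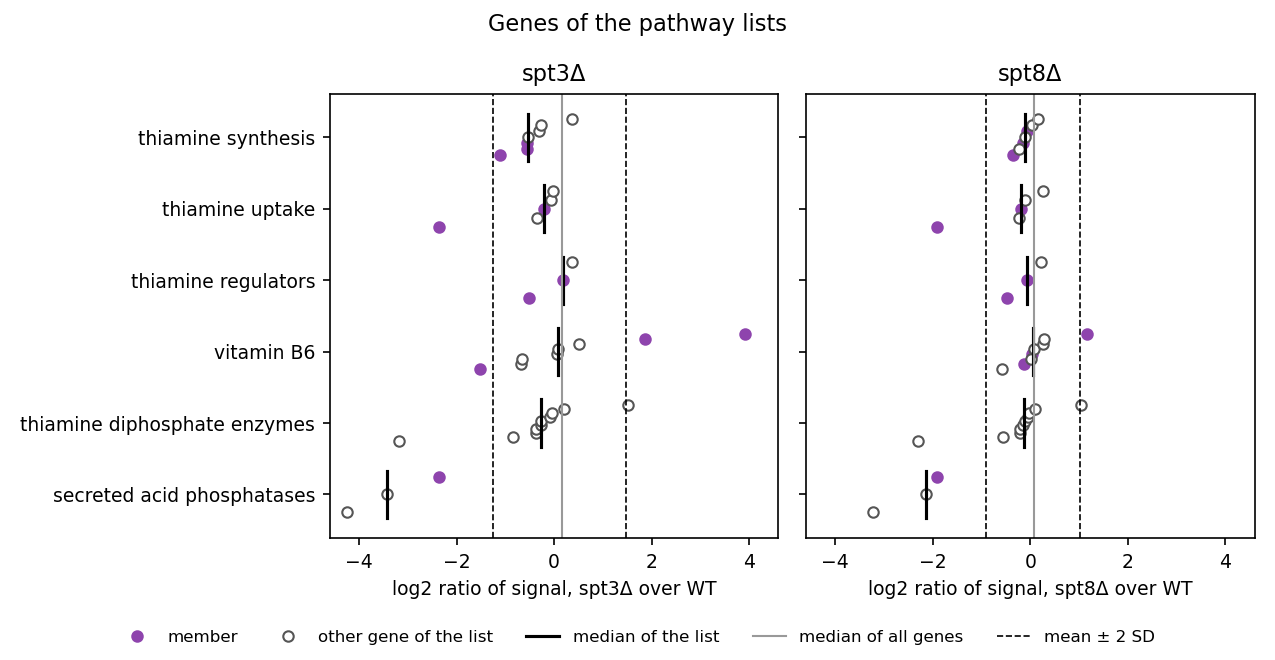
Log2 ratio of signal to WT in *spt3Δ* (left) and *spt8Δ* (right) for each measured gene of 6 lists, with the 10 genes filled, other genes open, list medians as black bars, the median of all genes in grey and the mean ± 2 SD dashed. Synthesis genes sit around their median of -0.54 in *spt3Δ* and around -0.12 in *spt8Δ*. None of them is past a limit, where 3.71% and 3.76% of all genes are. Vitamin B6 genes spread from -1.53 to 3.90 in *spt3Δ*.

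The direct comparison of *spt3Δ* with *spt8Δ* does not use the WT array. In it *SNO1* was 6.71-fold and *SNZ1* 3.52-fold higher in *spt3Δ*, and *SNZ3* was 2.64-fold and *THI4* 2.07-fold lower. These 4 genes were past the limits of this comparison, where 0.844% of all genes were called higher and 2.62% lower. On the log2 scale this ratio is the difference of the ratios to WT, which were known when the genes were picked. Nothing is thus read from this count. *PHO3* was 1.37-fold lower in *spt3Δ* than in *spt8Δ*, and *THI7* and *THI2* lay within 1.03-fold. All 10 genes lay further from WT in *spt3Δ* than in *spt8Δ*, as did 76.2% of all genes. Under loess or median scaling 9 of the 10 did, with *THI3* nearer to WT in *spt3Δ*. Under quantile scaling 8 did, with *THI2* and *THI3* nearer. The genes were picked with these ratios known, so nothing is read from this count either.

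Of the 10 measured enzymes that use thiamine diphosphate, *ARO10* and *PDC6* were past the limits in both mutants. Past a limit in either direction were 3.71% of all genes in *spt3Δ* and 3.76% in *spt8Δ*. This list was chosen with earlier results of these data known, so nothing is read from the count. Against the shared WT array, 71 of all 5449 genes were called lower in both and 32 higher in both. *ARO10*, a decarboxylase of aromatic amino acid breakdown, had signals of 315 in WT, 34.9 in *spt3Δ* and 64.2 in *spt8Δ*, which was 9.03-fold and 4.91-fold lower. *PDC6*, a minor isoform of pyruvate decarboxylase, had signals of 23.7, 68.0 and 48.5 and was 2.86-fold and 2.04-fold higher, but with 50 added to each signal its log2 ratios of 0.68 and 0.42 were inside the limits. The other 8 of the 10 enzymes measured were neither in both mutants. *TKL2*, the minor transketolase, had the lowest of these ratios, at -0.83 in *spt3Δ* and -0.56 in *spt8Δ*. *PDC1*, the main pyruvate decarboxylase gene, had signals of 10844 (WT), 8976 (*spt3Δ*) and 9320 (*spt8Δ*), and *TKL1*, the main transketolase gene, 9710, 8013 and 8950.

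*SNO1* and *SNZ1* are neighbors in the R64 gene order and, by their systematic names, run away from each other on opposite strands, so that they share the region between their starts. Past *SNO1* lies *CTF13* (YMR094W), which encodes a kinetochore protein and runs toward *SNO1*. Its signal was 11.7 in WT, against 39.6 in *spt3Δ* and 19.1 in *spt8Δ*. As with *SNO1*, *spt3Δ* was the highest and WT the lowest array, and the ratio of 3.40-fold in *spt3Δ* was past the limit. All of these signals were low, and with 50 added to each the log2 ratio was 0.54 and inside the limits. *MTG1*, the gene on the far side of *SNZ1*, was 1.41-fold higher in *spt3Δ*, inside the limits. Of the 18 genes next to the 10, other than these 10 themselves, 15 were measured, and *CTF13* and *PHO5* were the ones past a limit in *spt3Δ*, and *PHO5* in *spt8Δ*, where 3.71% and 3.76% of all genes were past a limit in either direction. The median log2 ratio of the 15 was 0.19 in *spt3Δ* and 0.12 in *spt8Δ*.

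**Figure D4:**
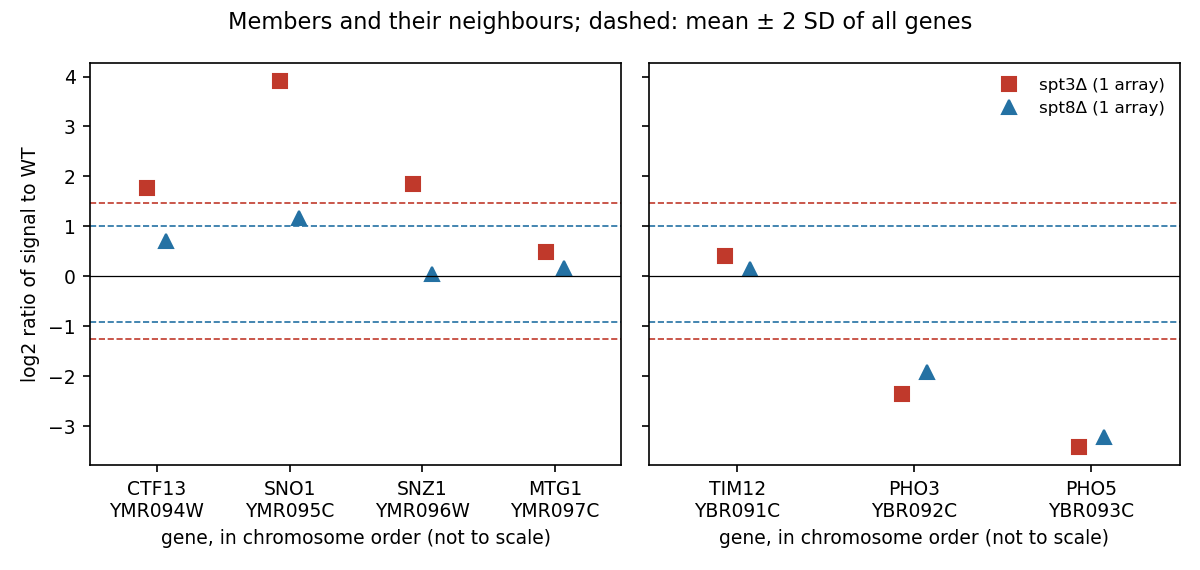
Log2 ratio of signal to WT (y axis) in *spt3Δ* (squares) and *spt8Δ* (triangles) for *SNO1* and *SNZ1* with their neighbors (left) and for *PHO3* with its neighbors (right), in chromosome order and not to scale, with dashed lines at the mean ± 2 SD of all genes for each mutant. *CTF13*, *SNO1* and *SNZ1* lie above the *spt3Δ* limit while *MTG1* lies at 0.49, and *PHO3* and *PHO5* lie below the limits in both mutants while *TIM12* lies at 0.41 and 0.15.

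The genes most like *SNO1* and *PHO3* in pattern were taken as those nearest in both log2 ratios among the 5268 genes above background on all 3 arrays. This distance rests on 3 arrays. Nearest to *SNO1* were *SUL2*, a sulfate permease gene (distance 1.39 in log2 units), *SPO22*, a meiosis gene (1.64), and *MET3*, the ATP sulfurylase gene (1.79). *SUL2* was 6.17-fold higher in *spt3Δ* and 3.25-fold in *spt8Δ*, and *MET3* 4.41-fold and 2.71-fold, so both were less far from WT than *SNO1* in *spt3Δ* and further in *spt8Δ*. *PHO3* had closer neighbors in pattern, *PHM8*, a phosphatase gene (0.15), *HSP12*, a heat shock gene (0.26), and YJL218W (0.31). *PHM8* had signals of 139 (WT), 28.3 (*spt3Δ*) and 33.8 (*spt8Δ*), and was 4.92-fold and 4.12-fold lower.

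The spread of ratios over all genes was widest among the dimmest genes. When genes were split into 5 equal groups by mean signal, *SNO1*, *THI4* and *THI2* fell in the dimmest, where the SD of the log2 ratio was 1.06 for *spt3Δ* and 0.82 for *spt8Δ*, and 11.4% and 11.8% of genes were past a limit. In the 3 groups above it, which hold the other 7 genes, the SD lay between 0.51 and 0.61 in *spt3Δ* and between 0.34 and 0.38 in *spt8Δ*, and 1.65% to 2.66% of genes were past a limit. The ratios of *SNZ1*, *SNZ3* and *PHO3* in *spt3Δ* were thus from signals where few genes were called, and that of *SNO1* from signals where more were. These genes were picked with their ratios known, so this does not measure how reliable the ratios are.

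**Figure D5:**
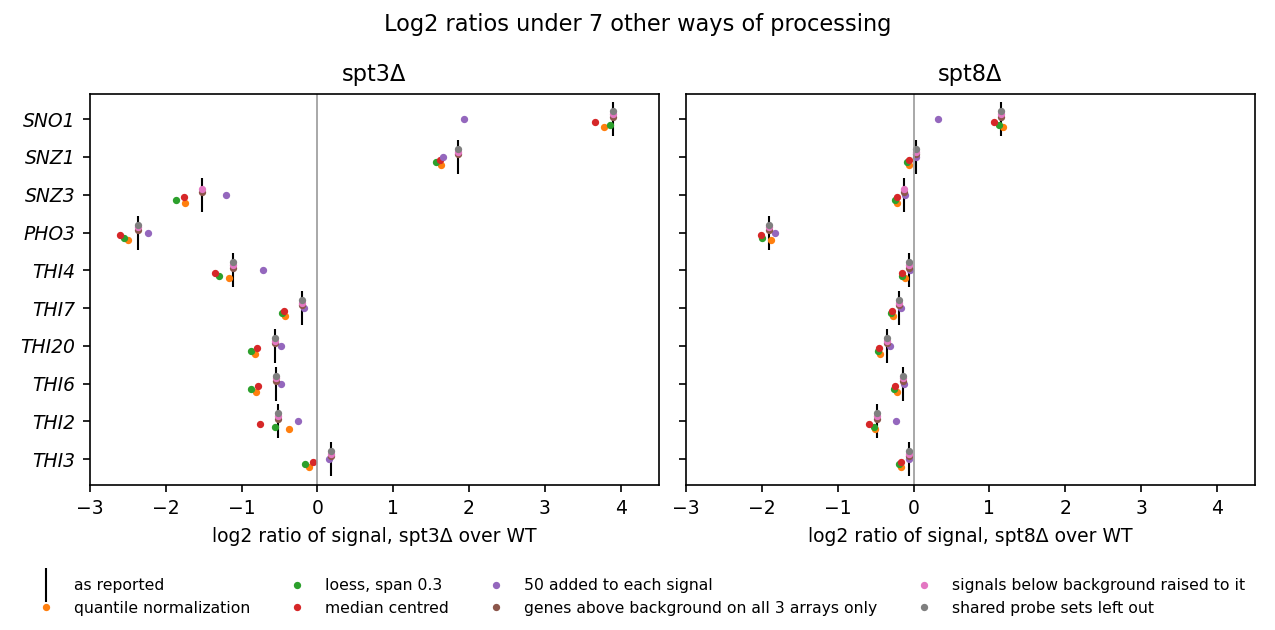
Log2 ratio of signal to WT for each of the 10 genes as reported (black bars) and under 7 other ways of scaling or filtering (colored points), in *spt3Δ* (left) and *spt8Δ* (right). *SNO1* in *spt3Δ* ranges from 1.94 to 3.90 and *PHO3* from -2.60 to -2.23, and *THI3* in *spt3Δ* and *SNZ1* in *spt8Δ* change sign around 0.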

How the data were processed

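Total RNA (200 ng) from each strain was labelled by 3′ in vitro transcription and read on 1 Affymetrix Yeast Genome 2.0 array. The authors processed the scans with MAS5 at default settings, and Affymetrix Expression Console is also named in the submitters' processing notes. The deposited intensity values are 1 linear signal per probe set, and the mean trimmed by 2% at each end was 500.4, 500.3 and 500.3. Detection calls were not used here.

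Of 10928 probe sets, 5498 were assigned to *S. cerevisiae* and 1746 to *S. pombe* through the platform annotation and the R64 gene table, 1 named several genes and 3683 were unnamed. Where a gene had several probe sets, their log2 signals were averaged (5449 genes). Ratios were taken with pandas 2.3.3 and loess with statsmodels 0.14.6 (span 0.3). With 1 array per strain, no p-value or standard error exists, and the number of arrays limits the precision. The ratio and call steps were tested on simulated arrays with the same noise for all genes and large planted changes of a single size. The wider spread of dim genes and smaller changes were not covered by that test. The members, the pathway lists and the rule for named genes (all members, the listed genes, the 3 genes nearest in pattern to 2 members, and R64 neighbors) were chosen with earlier results of these data known. Alternatives were other scalings (quantile, loess, median), 50 added to each signal, filters on dim genes and shared probe sets, and thresholds of 2-fold or 2 robust SD. Sequences were not used here.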

Additional observations from a re-analysis of the deposited data

How the results depend on the processing

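The calls of *SNO1*, *SNZ1* and *PHO3* in *spt3Δ* and of *PHO3* in *spt8Δ* were kept in all alternatives run, and that of *SNZ3* in *spt3Δ* in all but the one that left out shared probe sets, where it has no value. The number of genes called in *spt3Δ* was 4 of 10 and ranged from 3 to 5 under the alternatives. In *spt8Δ* it was 2, and 1 with 50 added to each signal, where *SNO1* was inside the limits. The *SNO1* signals of 12.7 in WT and 28.3 in *spt8Δ* are both smaller than the 50 added. As reported, 3.71% of all genes were past a limit in *spt3Δ* and 3.76% in *spt8Δ*. The limits differ between alternatives, and the genes were picked with their ratios known, so nothing is read from the counts. The median log2 ratio of the 10 genes in *spt3Δ* was -0.77 with each array centred on the median of its genes, against -0.54 as reported, while the median of all genes moved from 0.15 to -0.083. Of 138 values of single members under the other scalings and filters, 110 moved by less than the median range between probe sets of 1 gene (0.21 in *spt3Δ* and 0.20 in *spt8Δ*, log2), 28 moved by more, 6 took the opposite sign (*THI3* in *spt3Δ* and *SNZ1* in *spt8Δ*, neither of them called) and 3 changed their call (*THI4* in *spt3Δ* under both filters on dim genes, *SNO1* in *spt8Δ* with 50 added). With thresholds of 2-fold or 2 robust SD *THI4* was also called lower in *spt3Δ*. No paired analysis was possible because each strain has 1 array. Leaving out a replicate was not possible for the same reason, and no difference between strains has an error.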

Other observations

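The array also carries *S. pombe* probe sets with the names of members. Those named thi2 and thi4 were not above background on any array. The one named snz1 had signals of 8.26 (WT), 4.39 (*spt3Δ*) and 8.69 (*spt8Δ*), just above background in WT and *spt8Δ*, and was lowest on the array where *SNZ1* of *S. cerevisiae* was highest. Among the markers the methods list as mutated, *HIS3*, listed as *his3Δ1*, had signals of 1589 (WT), 2638 (*spt3Δ*) and 1774 (*spt8Δ*). *LEU2*, listed as *leu2Δ0*, had signals of 9.50 (WT), 18.2 (*spt3Δ*) and 34.0 (*spt8Δ*), above background on all 3 arrays and past the upper limit in *spt8Δ* at 3.57-fold. Its WT signal lay near the background of 7.17. By mean signal *LEU2* fell in the dimmest group of genes, of which 11.8% were past a limit in *spt8Δ*. *URA3* was not above background on any array.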
